A study of Mus musculus with 32 samples.

Results

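Bone of mice that carried both a molar ligature and an occlusal overload (LiTra) was compared with bone of untreated mice (Co), over all genes and with 4 libraries in each group. These 8 libraries were taken by their group labels from 32 in the series. LiTra mice had a 6-0 silk ligature at the upper left second molar, a common model of periodontitis, and a build-up of composite resin on its chewing surface. Li mice had the thread alone, Tra mice the resin alone, and Co mice neither; 4 bone libraries of each served here only to test or set beside the combined treatment. All were wild-type C57BL/6J males treated at 9 weeks of age. The question in the series title is whether the overload worsens bone loss under a ligature through gene expression in bone. The interval from treatment to sampling is not in the labels, nor do they say whether the libraries of a group came from separate animals. The p-values therefore measure only the spread between these libraries, which may be technical.

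Bone is resorbed by osteoclasts, cells that arise from the monocyte lineage when the cytokine RANKL (Tnfsf11) meets its receptor RANK (Tnfrsf11a), a step that the decoy receptor osteoprotegerin (Tnfrsf11b) opposes. They seal off a patch of bone, acidify it with a vacuolar proton pump and digest its collagen with cathepsin K (Ctsk). In periodontitis, cytokines of the inflamed tissue, among them interleukins 1, 6 and 17, raise RANKL in osteoblasts, osteocytes, ligament fibroblasts and lymphocytes. A jaw bone sample also holds marrow, in which red cells, B cells and neutrophils are made.

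Bone libraries held 38163979 to 70793037 counts, as deposited. CPM below are counts scaled to a common library size with TMM, a correction for libraries in which a few genes take most counts. They depend on gene length, so they are compared between groups and not between genes. Some libraries stood apart. Genes of a nasal gland list took 52.9% of the counts in LiTra 1, 49.2% in Co 3 and 15.1% in Co 4. In the other LiTra and Co libraries they took 0.00548 to 0.639%. Tra 3 held 52.0%, Li 2 24.6% and Tra 1 7.06%. None of the 23 tested genes of that list was called between LiTra and Co. With shares so far apart within each group the test could hardly call them. It does not show that the groups held like amounts. Because of these shares, each count of a gene list below is followed by the count without LiTra 1, Co 3 and Tra 3 where that differs by more than 2 genes. Li 2, Co 4 and Tra 1 stay in that fit. The labelled tissue showed in both groups: Col1a1, the main collagen of bone matrix, was at 6357, 9864, 9555 and 10824 CPM in LiTra, against 8219, 9791, 3379 and 15798 CPM in Co. Dmp1, made by osteocytes, was at 227, 466, 499 and 376 CPM in LiTra, against 493, 586, 314 and 539.5 CPM in Co.

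**Figure D1:**
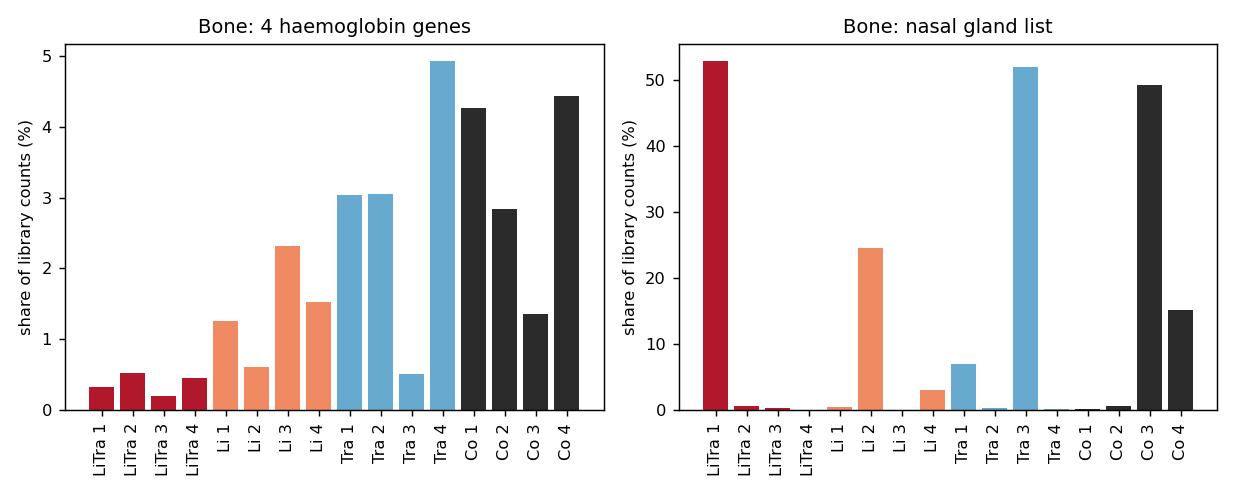
Share of each bone library's counts, in percent, taken by the 4 haemoglobin genes (left) and by the nasal gland list (right), 1 bar per library with groups in the order LiTra, Li, Tra and Co. The LiTra libraries lie at 0.203 to 0.525% haemoglobin and the Co libraries at 1.36 to 4.43%. LiTra 1, Tra 3 and Co 3 stand out by their nasal gland share, followed by Li 2 (24.6%) and Co 4 (15.1%).

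Of 21205 genes tested, 3589 (16.9%) differed between LiTra and Co bone at an adjusted p under 0.05 (edgeR's quasi-likelihood test, Benjamini-Hochberg adjustment over all genes), 1757 (8.29%) higher and 1832 (8.64%) lower in LiTra. The decreases were the larger ones: 863 genes (4.07%) fell at least 2-fold and 442 (2.08%) rose at least 2-fold. Without LiTra 1, Co 3 and Tra 3 the counts were 2404 higher and 2437 lower. Leaving out LiTra 2 gave 1124 higher and 1113 lower, and leaving out Co 4 gave 1114 higher and 1055 lower. With library totals as the only scaling 12 genes were called, 12 higher and 0 lower, so no decrease named below was called under that scaling; of the increases named, Ccl2, Cd14, Dio2, Il6, Mmp3, Prg4, Ptgs2, Saa3 and Sod3 were. Fold changes below are log2 ± SE, LiTra over Co, from this fit, and "rose" and "fell" are used of genes that passed its test. Over all genes tested the median log2 difference was -0.01. Counts of gene lists below are to be read beside the 8.29% higher and 8.64% lower of all genes tested. The lists were chosen with earlier results of these data known, so their counts are descriptions and not independent support.

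**Figure D2:**
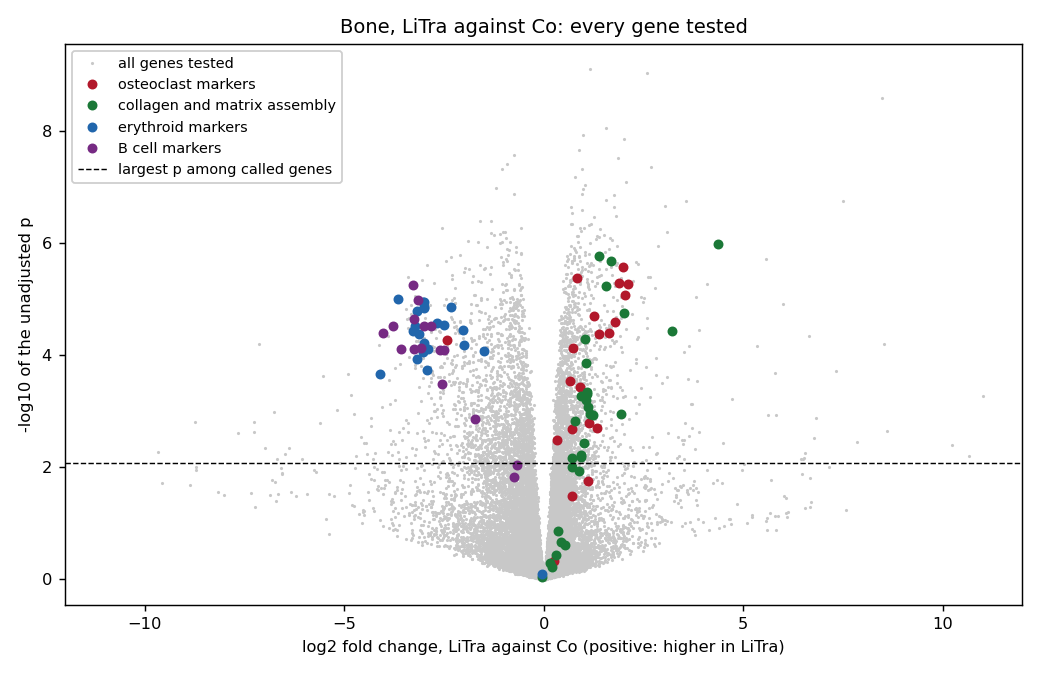
Each point is 1 of the 21205 genes tested, with the log2 fold change of LiTra over Co on the x axis and -log10 of its unadjusted p on the y axis; 4 gene lists are coloured, and genes above the dashed line were called. Osteoclast and matrix assembly genes lie mostly to the right, erythroid and B cell genes mostly to the left.

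**Figure D3:**
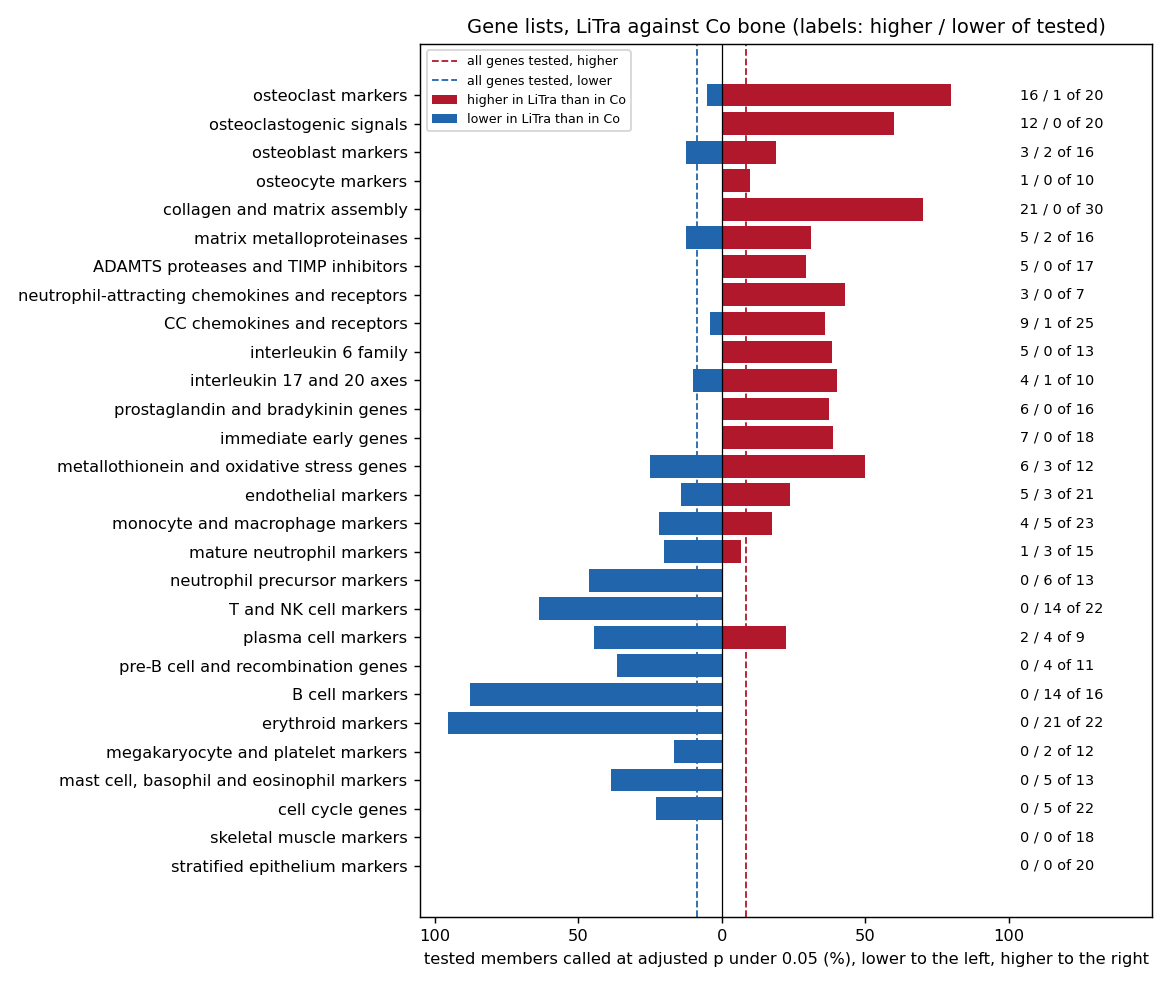
Percent of the tested members of the gene lists shown that were called higher (right, red) or lower (left, blue) in LiTra than in Co bone, with the counts printed beside each row. Dashed lines mark 8.29% and 8.64%, the shares of all genes tested that were higher and lower.

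Genes of the osteoclast rose together in LiTra bone. Of 20 osteoclast markers, 16 rose and 1 fell, while 3 missed the threshold, with a median log2 difference of 1.13. The number that rose was 13 to 17 with 1 library left out. Ctsk (ENSMUSG00000028111.5) was at 2995, 4163, 4816 and 3783 CPM in LiTra, against 1019.8, 1637, 847 and 1038 CPM in Co. Every LiTra library lay above every Co library (log2 change of 1.79 ± 0.30, adjusted p = 0.0012). Dcstamp (ENSMUSG00000022303.10) encodes a membrane protein that osteoclast precursors need to fuse. It was at 51.3, 55.7, 61.1 and 53.96 CPM in LiTra, against 10.6, 19.6, 10.6 and 10.3 CPM in Co. The groups did not overlap and the LiTra libraries lay close together (2.12 ± 0.30, adjusted p = 0.00058). Its partner in fusion Ocstamp rose by 2.05 ± 0.30, the sodium-proton exchanger gene Slc9b2 by 2.00 ± 0.27, and Oscar, a co-stimulatory receptor of the lineage, by 1.63 ± 0.28. Tnfrsf11a, the RANKL receptor, was at 35.9, 55.3, 64.6 and 54.3 CPM in LiTra, against 13.6, 27.4, 19.1 and 19.96 CPM in Co (1.39 ± 0.24, adjusted p = 0.0016), with no overlap. Nfatc1, the transcription factor that RANKL switches on, rose less (0.72 ± 0.19, adjusted p = 0.019), as did Src, the kinase of the ruffled border (0.84 ± 0.12). Acp5, the tartrate-resistant acid phosphatase, was at 1485, 2278, 2611 and 2162 CPM in LiTra, against 792, 1446, 754 and 863 CPM in Co (1.15 ± 0.30, adjusted p = 0.017). Mmp9 (0.71 ± 0.30, adjusted p = 0.13), the calcitonin receptor Calcr (1.11 ± 0.41, adjusted p = 0.082) and the integrin subunit Itgb3 (0.27 ± 0.36, adjusted p = 0.7) did not pass. Without LiTra 1, Co 3 and Tra 3, Mmp9 (adjusted p = 0.0207) and Calcr (adjusted p = 0.027) passed. Of 16 fits that each left out 1 library, the call was lost for Nfatc1 without any 1 of LiTra 2, LiTra 3, Co 1 or Co 3 (adjusted p up to 0.0647) and for Acp5 without any 1 of Co 1 or Co 4 (adjusted p up to 0.0589).

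Genes of acid secretion rose as well. Tcirg1 and Clcn7, the pump subunit and the chloride exchanger of the ruffled border, rose by 0.91 ± 0.20 and 0.73 ± 0.13. Atp6v0d2, a pump subunit enriched in osteoclasts, was at 225, 299, 341 and 273 CPM in LiTra, against 64.1, 115, 65.6 and 65.2 CPM in Co (1.88 ± 0.27, adjusted p = 0.00057). The lowest p of all genes tested belonged to Atp6v1h, another pump subunit, at 98.04, 100.2, 112 and 102 CPM in LiTra, against 43.5, 49.1, 47.7 and 43.1 CPM in Co (1.17 ± 0.08, adjusted p = 9.6e-06); the libraries of each group lay close together and the groups were well apart. That result led to a count over all 22 tested genes named as vacuolar pump subunits or accessory proteins, chosen after its values were seen: 14 rose, 1 fell (Atp6v0a1, -0.78 ± 0.15, adjusted p = 0.0027) and 7 did not pass. Atp6v1a (1.40 ± 0.16), Atp6v1d (0.95 ± 0.11) and Atp6v1g1 (0.93 ± 0.11) were among those that rose. Of all genes tested 8.29% were higher. A rise of most members was not particular to the pump. In other families added later, 6 of 9 chaperonin complex genes, 7 of 11 oligosaccharyltransferase genes and 2 of 3 KDEL receptor genes rose. In each of these families 0 fell. Car2 went the other way from most pump genes. This carbonic anhydrase supplies protons in osteoclasts and is also abundant in red cells. It was at 109, 99.2, 55.03 and 66.9 CPM in LiTra, against 554, 365, 300.2 and 552 CPM in Co (-2.42 ± 0.43, adjusted p = 0.0018), lower in every LiTra library. Car1, a red cell carbonic anhydrase, fell by 3.31 on the log2 scale; the part of red cell RNA in the Car2 value was not tested.

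A list of signals to osteoclasts holds drivers of their formation and also osteoprotegerin, which opposes it. Of its 20 genes, 12 rose and 0 fell, while 8 missed the threshold (median 1.70), and osteoprotegerin is among those that rose. The number that rose was 8 to 13 with 1 library left out. RANKL, Tnfsf11 (ENSMUSG00000022015.9), was at 25.03, 39.9, 24.2 and 35.6 CPM in LiTra, against 7.83, 15.1, 8.89 and 8.11 CPM in Co, without overlap (1.64 ± 0.28, adjusted p = 0.0016). Osteoprotegerin (Tnfrsf11b) was at 38.1, 61.6, 62.8 and 49.9 CPM in LiTra, against 41.4, 34.04, 19.4 and 25.8 CPM in Co (0.81 ± 0.26, adjusted p = 0.047), with LiTra 1 inside the Co range. Its call was lost in 11 of the 16 fits that left out 1 library, all but those without LiTra 1, Li 1, Tra 2, Tra 3 and Co 1 (adjusted p up to 0.133). Il6 was at 27.9, 26.02, 4.30 and 16.5 CPM in LiTra, against 0.142, 0.231, 0.666 and 0.183 CPM in Co (5.99 ± 0.92, adjusted p = 0.00086). Il1b was at 235, 197, 56.02 and 82.6 CPM in LiTra, against 17.9, 7.66, 5.22 and 7.74 CPM in Co (3.89 ± 0.66, adjusted p = 0.0014). In both, LiTra 3 was the lowest LiTra library and still above all Co libraries. Lif (1.93 ± 0.27, adjusted p = 0.00052) and Il11 (3.65 ± 0.66, adjusted p = 0.002), cytokines that signal through the same gp130 chain as interleukin 6, rose too. Il11 was at 4.63, 4.96, 1.07 and 1.68 CPM in LiTra, against 0.284, 0.301, 0.296 and 0.0914 CPM in Co, which are low levels. Csf1, the growth factor that osteoclast precursors need (0.22 ± 0.17, adjusted p = 0.44), its relative Il34 (-0.77 ± 0.31, adjusted p = 0.11) and Tnf (-0.29 ± 0.36, adjusted p = 0.66) did not pass.

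Interleukin 17 genes were measured at low counts. Il17a, which encodes the cytokine of Th17 and gamma delta T cells, had 238, 297, 8 and 412 counts in the LiTra libraries, against 0 counts in each Co library. Against a floor of 3 counts over the Co group its mean of 4.97 CPM was at least 354-fold higher, a bound that covers counting error only. LiTra 3 was far below the other LiTra libraries. Il17f was at 5.98, 2.28, 0.225 and 4.79 CPM in LiTra, against 0.107, 0.0925, 0 and 0 CPM in Co (5.83 ± 1.45, adjusted p = 0.013). Il23r, a receptor chain that sustains Th17 cells, was at 0.372, 0.282, 0.943 and 0.742 CPM in LiTra, against 0.0533, 0.0925, 0 and 0 CPM in Co (3.73 ± 0.87, adjusted p = 0.0099). Of the 10 tested genes of the interleukin 17 and 20 list, 4 rose and 1 fell, while 5 missed the threshold; without the 3 nasal-rich libraries 6 rose and 1 fell. Among the interleukin 17 and 20 axes, the number that rose was 7 without Tra 3; the number that fell was 0 without LiTra 1, LiTra 2, LiTra 3, Co 1, Co 2 or Co 4.

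Several genes for matrix-degrading enzymes rose, though most of the list did not pass. Of 16 matrix metalloproteinase genes, 5 rose and 2 fell, while 9 missed the threshold (median 0.66). Of 17 ADAMTS protease and TIMP inhibitor genes, 5 rose and 0 fell, while 12 missed the threshold (median 0.32). Mmp3 (ENSMUSG00000043613.9), stromelysin, was at 282, 318, 106 and 153 CPM in LiTra, against 0.55, 1.80, 1.37 and 1.005 CPM in Co (7.50 ± 0.80, adjusted p = 0.00016), far above the Co range in every LiTra library. Mmp13, a collagenase of bone-forming and cartilage cells, was at 5124, 6944, 4362 and 5503 CPM in LiTra, against 933, 1602, 738 and 1001 CPM in Co (2.36 ± 0.31, adjusted p = 0.00043). Timp1, an inhibitor of these enzymes, was at 348, 494, 308 and 410.1 CPM in LiTra, against 58.7, 80.8, 48.98 and 51.8 CPM in Co (2.70 ± 0.26, adjusted p = 7.9e-05), again without overlap. Adamts4, which cuts the proteoglycan aggrecan, rose by 2.88 ± 0.36 (adjusted p = 0.00035). The members that fell were Mmp8 (-1.59 ± 0.51, adjusted p = 0.045) and Mmp25 (-1.79 ± 0.51, adjusted p = 0.027), both made by neutrophils. Leaving out 1 library ended the call of Mmp8 in 12 of the 16, all but those without LiTra 3, Li 1, Li 4 and Tra 3 (adjusted p up to 0.126) and of Mmp25 without any 1 of LiTra 1, LiTra 2, LiTra 3, Co 2 or Co 4 (adjusted p up to 0.0821). Among the matrix metalloproteinases, the number that rose was 3 without LiTra 2, Co 3 or Co 4; the number that fell was 0 without LiTra 1, LiTra 2, Co 2 or Co 4 and 1 without LiTra 3, LiTra 4, Li 2, Li 3, Tra 1, Tra 2, Tra 4, Co 1 or Co 3. Among the ADAMTS proteases and TIMP inhibitors, the number that fell was 1 without LiTra 3, Li 4, Tra 3 or Co 3.

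Promoters of some raised genes are shown with the sites that 2 inflammatory transcription factors are known to bind. Genes and sites were paired by hand and each gene shown holds its site. They therefore do not tell how common the sites are among raised genes. The first set gives the 250 bases before the start of Mmp3 (chr9:7445572-7445821, plus strand) and Mmp13 (chr9:7272264-7272513, plus strand), read 5′ to 3′ on the gene's strand, from RefSeq on GRCm38.p6, a build other than that of the counts. Capitals mark TGANTCA on either strand, the AP-1 site, which Fos and Jun proteins bind.
Mmp3: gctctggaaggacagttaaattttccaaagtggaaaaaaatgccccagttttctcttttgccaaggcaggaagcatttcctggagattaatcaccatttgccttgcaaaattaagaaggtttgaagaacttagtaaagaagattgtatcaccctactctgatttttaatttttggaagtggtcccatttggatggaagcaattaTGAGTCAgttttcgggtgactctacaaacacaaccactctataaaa
Mmp13: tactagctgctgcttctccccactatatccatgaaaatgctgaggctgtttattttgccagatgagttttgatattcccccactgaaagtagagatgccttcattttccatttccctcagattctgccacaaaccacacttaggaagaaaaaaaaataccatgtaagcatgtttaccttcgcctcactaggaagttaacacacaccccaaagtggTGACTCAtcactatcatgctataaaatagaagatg
The second set gives Cxcl1 (chr5:90890995-90891244, plus strand), Cxcl2 (chr5:90903649-90903898, plus strand) and Il6 (chr5:30012864-30013113, plus strand), with GGGA, any base and then TTTCC on either strand, an NF-kappaB site, in capitals.
Cxcl1: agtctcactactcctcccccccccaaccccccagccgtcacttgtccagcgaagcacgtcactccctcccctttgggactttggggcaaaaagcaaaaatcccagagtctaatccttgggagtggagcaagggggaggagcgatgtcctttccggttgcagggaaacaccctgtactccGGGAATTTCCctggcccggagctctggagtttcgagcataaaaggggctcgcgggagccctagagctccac
Cxcl2: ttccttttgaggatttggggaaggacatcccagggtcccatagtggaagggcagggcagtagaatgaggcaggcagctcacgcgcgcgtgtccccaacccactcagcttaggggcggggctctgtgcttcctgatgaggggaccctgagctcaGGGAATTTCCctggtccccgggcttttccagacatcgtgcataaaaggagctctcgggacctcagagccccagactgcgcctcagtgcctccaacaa
Il6: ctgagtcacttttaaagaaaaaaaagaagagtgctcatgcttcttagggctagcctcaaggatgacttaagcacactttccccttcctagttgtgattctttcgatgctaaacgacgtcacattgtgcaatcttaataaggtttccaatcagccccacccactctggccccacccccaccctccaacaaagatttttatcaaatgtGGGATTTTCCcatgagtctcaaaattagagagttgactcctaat
The AP-1 letters begin 46 bases before the start in Mmp3 and 35 in Mmp13, and the NF-kappaB letters 71, 97 and 44 bases before the start in Cxcl1, Cxcl2 and Il6. Of all 32851 RefSeq mouse promoters in the table, 6.75% hold the AP-1 letters and 0.356% the NF-kappaB letters in these 250 bases. Among promoters matched by symbol to tested genes, the AP-1 letters stood in 6.43% of the 1648 of genes higher in LiTra, 4.57% of the 1839 of genes lower in LiTra and 5.34% of all 17374, and the NF-kappaB letters in 0.667%, 0.435% and 0.391%. These matches describe letters and show no binding.

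Matrix assembly genes rose while the main collagens of bone did not pass the test. Of 30 collagen and matrix assembly genes, 21 rose and 0 fell, while 9 missed the threshold (median 1.03). The number that rose was 16 to 23 with 1 library left out. Prg4, the joint lubricant lubricin, was at 8.21, 12.2, 16.7 and 26.4 CPM in LiTra, against 0.639, 0.775, 0.259 and 1.35 CPM in Co (4.38 ± 0.54, adjusted p = 0.00034). Has2, a hyaluronan synthase, was at 21.7, 18.8, 7.79 and 17.02 CPM in LiTra, against 4.35, 1.09, 0.666 and 0.799 CPM in Co (3.23 ± 0.55, adjusted p = 0.0015); Co 1 was the highest of its group and below all LiTra libraries. Lox, which cross-links collagen (1.40 ± 0.18, adjusted p = 0.0004), Vcan, the proteoglycan versican (1.56 ± 0.22), Col18a1, a basement membrane collagen (2.01 ± 0.32), Serpinh1, the collagen chaperone (1.11 ± 0.26) and P4ha1, a collagen prolyl hydroxylase (1.05 ± 0.18), rose. Log2 differences were -0.02 ± 0.37 for Col1a1, 0.25 ± 0.36 for Col1a2 and 0.53 ± 0.44 for Col3a1 (adjusted p 0.48 to 0.98); the sign for Col1a1 turned in 5 of the alternatives. The LiTra and Co libraries overlapped in all 3 of these collagens, with the Co range running from 3379 to 15798 CPM in Col1a1.

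Most osteoblast genes did not pass. Of 16 osteoblast markers, 3 rose and 2 fell, while 11 missed the threshold, shares of 18.8% and 12.5% beside 8.29% and 8.64% of all genes tested. Ibsp, bone sialoprotein, was at 3836, 5404, 5358 and 7101 CPM in LiTra, against 1686, 2403, 1132 and 1743 CPM in Co (1.64 ± 0.28, adjusted p = 0.0014). Ifitm5, a membrane protein of mineralizing osteoblasts, was at 29.5, 57.5, 50.6 and 55.3 CPM in LiTra, against 19.4, 21.6, 15.4 and 17.6 CPM in Co (1.38 ± 0.23, adjusted p = 0.0013). Neither overlapped. Spp1, osteopontin, rose by 0.99 ± 0.31, adjusted p = 0.043. Bglap, osteocalcin of mature osteoblasts, was lower in every LiTra library, at 575, 937, 549.9 and 380.1 CPM in LiTra, against 1371, 1637, 973 and 1319 CPM in Co (-1.12 ± 0.31, adjusted p = 0.025). It shares its sequence closely with Bglap2, the other member that fell, so reads can be split between them. Alpl did not pass (0.14 ± 0.29, adjusted p = 0.83). Of 10 osteocyte markers only Pdpn, a membrane protein of young osteocytes that other stromal cells also make, was called, and it rose (1.29 ± 0.25, adjusted p = 0.0028). Sost, the osteocyte inhibitor of Wnt signalling, was at 13.8, 9.75, 34.4 and 7.42 CPM in LiTra, against 26.9, 29.00, 12.1 and 44.6 CPM in Co, with overlap (-0.79 ± 0.53, adjusted p = 0.37). Of 9 cartilage markers, 1 rose and 1 fell (11.1% each), while 7 missed the threshold (median 0.76). Col2a1, the collagen of cartilage, was the one that fell (-1.45 ± 0.34, adjusted p = 0.011), against the sign of the median. Of 13 periodontal ligament and tendon markers, Col12a1 (1.64 ± 0.34, adjusted p = 0.0051) and Fmod (1.40 ± 0.32, adjusted p = 0.0088) rose and 11 did not pass, among them Postn (0.43 ± 0.39, adjusted p = 0.54). Lum, a small proteoglycan, rose by 1.42 ± 0.25. Calls were lost for Spp1 in 11 of the 16, all but those without LiTra 1, Li 3, Tra 2, Tra 3 and Co 2 (adjusted p up to 0.111) and Bglap without any 1 of LiTra 1, LiTra 3, LiTra 4, Co 1, Co 2 or Co 4 (adjusted p up to 0.0741). Among the osteoblast markers, the number that fell was 0 without LiTra 1, LiTra 3, LiTra 4, Co 1, Co 2 or Co 4 and 1 without Li 2, Li 3, Li 4, Tra 1, Tra 2 or Tra 4. Among the cartilage markers, the number that rose was 0 without LiTra 1, LiTra 2, LiTra 3, LiTra 4, Li 1, Li 2, Li 3, Li 4, Tra 1, Tra 2, Co 1 or Co 3 and 2 without Tra 3.

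Regulators of bone growth that were called include Sfrp4, a secreted Wnt antagonist, at 256, 472, 238 and 314 CPM in LiTra, against 69.6, 119, 74.1 and 73.2 CPM in Co (1.93 ± 0.29, adjusted p = 0.00077), without overlap. Of 31 Wnt genes, 5 rose (16.1%) and 2 fell (6.45%), while 24 missed the threshold. Of all genes tested 8.29% were higher and 8.64% lower. Bmp6, a bone morphogenetic protein, was at 5.98, 8.89, 11.3 and 9.17 CPM in LiTra, against 25.02, 24.3, 13.9 and 24.6 CPM in Co (-1.31 ± 0.25, adjusted p = 0.0027). It was the member of 21 BMP genes that fell, beside 2 that rose. The BMP shares of 9.52% higher and 4.76% lower lay near or under those of all genes tested. The number of BMP genes that rose was 1 to 3 with 1 library left out. Inhba, the activin A subunit (1.96 ± 0.30, adjusted p = 0.00088), and Tgfbr1, a TGF-beta receptor (1.21 ± 0.17, adjusted p = 0.00056), rose. They were among 5 of 18 TGF-beta and activin genes that rose (27.8%), with 0 that fell. In that list 3 to 7 rose and 0 to 1 fell with 1 library left out. Of 13 mechanosensing and YAP target genes, 1 rose and 0 fell, while 12 missed the threshold. That 7.69% higher is about the share among all genes tested. Among the Wnt ligands, receptors and inhibitors, the number that rose was 1 without LiTra 2 and 3 without LiTra 4 or Co 4; the number that fell was 0 without LiTra 1, LiTra 2, Co 2 or Co 4 and 1 without LiTra 3, LiTra 4 or Co 1. Among the mechanosensing and YAP target genes, the number that rose was 0 without LiTra 2, LiTra 3, LiTra 4, Li 3, Tra 1, Tra 2, Tra 4, Co 1, Co 2, Co 3 or Co 4 and 2 without Tra 3.

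A minority of acute-phase and chemokine genes was called, with some large increases. Saa3 (ENSMUSG00000040026.9), a serum amyloid made in inflamed tissue, was at 709.9, 1271, 396 and 623 CPM in LiTra, against 1.60, 2.79, 0.518 and 3.38 CPM in Co (8.48 ± 0.65, adjusted p = 1.8e-05), the largest increase under the rule for named genes. Saa1 was at 4.19, 4.599, 1.80 and 4.88 CPM in LiTra, against 0, 0.116, 0 and 0 CPM in Co (6.64 ± 1.15, adjusted p = 0.0016). Cd14, a receptor for bacterial lipopolysaccharide, was at 93.01, 91.5, 25.3 and 50.8 CPM in LiTra, against 7.32, 7.59, 8.92 and 6.97 CPM in Co (3.08 ± 0.37, adjusted p = 0.0003). Of 13 acute-phase genes, 5 rose and 1 fell, while 7 missed the threshold. Among 7 genes for neutrophil-attracting chemokines and their receptors, 3 rose and 0 fell, while 4 missed the threshold; without LiTra 1, Co 3 and Tra 3, 1 rose and 0 fell. Cxcl2 was at 59.9, 69.2, 6.47 and 21.6 CPM in LiTra, against 2.82, 0.289, 0 and 0 CPM in Co (5.61 ± 1.39, adjusted p = 0.013). Cxcl1 was at 28.8, 66.6, 13.6 and 22.2 CPM in LiTra, against 10.5, 0.358, 0.148 and 0.388 CPM in Co (3.52 ± 1.12, adjusted p = 0.044). Cxcl5 was at 121, 263, 93.8 and 70.7 CPM in LiTra, against 36.04, 3.12, 4.48 and 3.77 CPM in Co (3.53 ± 1.002, adjusted p = 0.027). Co 1 was the highest Co library in all 3, and no LiTra library reached down to it. The fits that left out 1 library lost the call of Cxcl1 in 14 of the 16, all but those without Tra 3 and Co 1 (adjusted p up to 0.127) and of Cxcl5 without any 1 of LiTra 2, Co 2, Co 3 or Co 4 (adjusted p up to 0.0812). Both also lost it without LiTra 1, Co 3 and Tra 3 (adjusted p = 0.0772 and 0.0709). Among the acute-phase genes, the number that fell was 0 without LiTra 2 or Co 2 and 2 without Tra 3. Among the neutrophil-attracting chemokines and receptors, the number that rose was 1 without LiTra 2, Co 2, Co 3 or Co 4.

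Of 25 CC chemokine and receptor genes, 9 rose and 1 fell, while 15 missed the threshold. Ccl2, which attracts monocytes, was at 10.8, 27.2, 4.20 and 10.9 CPM in LiTra, against 1.03, 1.20, 1.15 and 0.388 CPM in Co (3.82 ± 0.57, adjusted p = 0.00077). Ccl9, a chemokine that osteoclasts make, was at 192, 194, 159 and 176 CPM in LiTra, against 37.2, 60.6, 55.9 and 47.5 CPM in Co (1.84 ± 0.23, adjusted p = 0.00035). Ccl3 was at 11.99, 11.3, 1.19 and 3.87 CPM in LiTra, against 0.55, 0.775, 0.481 and 0.662 CPM in Co (3.51 ± 0.65, adjusted p = 0.0023). Ccl4 was at 7.06, 12.1, 0.943 and 1.91 CPM in LiTra, against 0.515, 0.358, 0.407 and 0.502 CPM in Co (3.62 ± 0.75, adjusted p = 0.005). Both attract macrophages and T cells, and LiTra 3 was the lowest LiTra library in both. Il1rl1, the interleukin 33 receptor, was at 90.3, 247, 76.1 and 81.1 CPM in LiTra, against 20.97, 19.97, 14.4 and 26.1 CPM in Co, with LiTra 2 far above the others (2.60 ± 0.42, adjusted p = 0.0012). Of 13 other CXC chemokine and receptor genes, 1 rose and 4 fell, while 8 missed the threshold, against 8.64% lower among all genes tested. Cxcl12, the chemokine that holds blood cells in marrow, fell, at 161, 187, 285 and 254 CPM in LiTra, against 733, 775, 562 and 801 CPM in Co (-1.69 ± 0.30, adjusted p = 0.0019), without overlap. Among the CC chemokines and receptors, the number that fell was 2 without Tra 3. Among the other CXC chemokines, the number that fell was 2 without LiTra 1, LiTra 2, Co 2 or Co 4.

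Some other inflammatory mediators rose too, though many members of their lists did not pass. Ptgs2, the inducible cyclooxygenase, was at 76.4, 112, 6.80 and 35.4 CPM in LiTra, against 1.23, 1.20, 1.85 and 0.571 CPM in Co (5.58 ± 0.73, adjusted p = 0.00041). Bdkrb1, the inducible bradykinin receptor, rose by 4.09 ± 0.58. Of 16 prostaglandin and bradykinin genes, 6 rose and 0 fell, while 10 missed the threshold. The feedback inhibitors Nfkbia (0.89 ± 0.14, adjusted p = 0.0011), Tnfaip3 (1.15 ± 0.22, adjusted p = 0.0031) and Socs3 (1.96 ± 0.26, adjusted p = 0.00045) and the oncostatin M receptor Osmr (1.38 ± 0.17, adjusted p = 0.00031) rose. Of 16 NF-kappaB target and feedback genes 6 rose, and of 13 interleukin 6 family genes 5, with 0 that fell in each. Of 20 TNF superfamily genes, 5 rose (3 to 6 with 1 library left out) and 2 fell, while 13 missed the threshold (median 0.01). Of 7 colony-stimulating factor and receptor genes, 1 rose and 0 fell. With 1 library left out, 0 to 2 interleukin 6 family genes fell and 0 to 1 colony-stimulating factor genes rose. Of 18 immediate early genes, 7 rose and 0 fell, while 11 missed the threshold. Fos was at 56.1, 57.3, 38.3 and 36.4 CPM in LiTra, against 8.68, 21.2, 9.81 and 8.999 CPM in Co (1.94 ± 0.35, adjusted p = 0.0021). Junb rose by 1.09 ± 0.15. Both encode subunits of AP-1. The metallothionein genes Mt1 and Mt2 rose by 1.77 ± 0.19 and 1.87 ± 0.17, and Sod3, an extracellular superoxide dismutase, by 2.61 ± 0.36, while Gclm, a subunit of the enzyme that begins glutathione synthesis, fell (-1.19 ± 0.19, adjusted p = 0.0012). Of 12 metallothionein and oxidative stress genes, 6 rose (50%) and 3 fell (25%). In that list 1 to 3 fell with 1 library left out. Of 10 heat shock genes, 4 rose (40%) and 0 fell, while 6 missed the threshold. The chaperone gene Hspa8 rose by 0.95 ± 0.13. Of 15 unfolded protein response genes, 4 rose (26.7%) and 1 fell (6.67%), while 10 missed the threshold. Hspa5, the chaperone of the endoplasmic reticulum, rose by 0.90 ± 0.14. Of all genes tested 8.29% were higher and 8.64% lower. Also among the 15 largest increases under the rule for named genes were Serpina3n, a protease inhibitor (3.10 ± 0.64), Dio2, the deiodinase that activates thyroid hormone (3.03 ± 0.33), and Angptl4, a lipase inhibitor (2.83 ± 0.54). Among the prostaglandin and bradykinin genes, the number that fell was 1 without LiTra 3, Li 4 or Co 3 and 2 without Tra 3. Among the immediate early genes, the number that fell was 1 without Co 3. Among the unfolded protein and amino acid response, the number that fell was 0 without LiTra 1, LiTra 3, LiTra 4, Li 2, Li 3, Tra 1, Tra 2, Co 1, Co 3 or Co 4.

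Red cell genes fell almost without exception. Of 22 erythroid markers, 0 rose and 21 fell, while 1 missed the threshold (median -2.99), and the count was 21 in each of the 16 fits that left out 1 library and without the 3 nasal-rich libraries. In bulk tissue, fewer cells of a type and less RNA per cell cannot be told apart, here and for every cell type below. The 4 haemoglobin genes took 0.324, 0.525, 0.203 and 0.450% of the counts in the LiTra libraries, against 4.26, 2.84, 1.36 and 4.43% in the Co libraries. Every LiTra library lay below every Co library, with means of 0.375 ± 0.142% and 3.22 ± 1.43% (SD, n = 4 each; difference -2.85 percentage points, exact two-sided permutation test, p = 0.0286, the smallest that 4 against 4 can give). Hba-a1 and Hba-a2, and Hbb-bs and Hbb-bt, are near-identical pairs whose separate values are uncertain; all 4 fell by 2.99 to 3.02 on the log2 scale. The master regulator Gata1 (ENSMUSG00000031162.15) was at 7.80, 7.28, 5.14 and 7.37 CPM in LiTra, against 44.2, 25.6, 22.9 and 45.3 CPM in Co (-2.32 ± 0.36, adjusted p = 0.00091). Klf1, the transcription factor that activates adult globin, was at 8.004, 8.41, 3.09 and 3.29 CPM in LiTra, against 70.1, 37.7, 35.4 and 70.05 CPM in Co (-3.23 ± 0.54, adjusted p = 0.0014). Alas2, the first enzyme of haem synthesis in red cells (-3.18 ± 0.50), Epor, the erythropoietin receptor (-2.49 ± 0.41), Pklr, the red cell pyruvate kinase (-4.11 ± 0.84), and the glutamine transporter gene Slc38a5 (-3.65 ± 0.55) fell. Tfrc, the transferrin receptor that erythroblasts share with other dividing cells, was the exception, at 325, 322, 306 and 274 CPM in LiTra, against 346, 324, 254 and 346 CPM in Co (-0.05 ± 0.21, adjusted p = 0.92).

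Of the 15 largest decreases under the rule for named genes, red cell genes made up Pklr, Slc38a5, Ank1 (the membrane anchor ankyrin, -3.37 ± 0.55), Tspo2 (-3.32 ± 0.51), Car1 and Cldn13 (-3.28 ± 0.56). Samd11 (-3.40 ± 0.57), 1300017J02Rik (-3.23 ± 0.48) and AC154279.1 (-3.39 ± 0.47) also ranked there, and their LiTra libraries lay at no more than 3.01 CPM. Upstream sequence is shown for Alas2 (chrX:150547167-150547416, plus strand) and Hbb-bs (chr7:103827929-103828178, minus strand), again 250 bases from RefSeq on GRCm38.p6, since both are erythroid genes. Capitals mark AGATAA on either strand, letters that Gata1 is known to bind.
Alas2: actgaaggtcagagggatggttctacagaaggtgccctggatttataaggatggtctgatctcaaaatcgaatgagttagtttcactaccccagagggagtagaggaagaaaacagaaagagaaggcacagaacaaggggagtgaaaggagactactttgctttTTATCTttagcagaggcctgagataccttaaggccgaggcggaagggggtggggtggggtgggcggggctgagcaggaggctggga
Hbb-bs: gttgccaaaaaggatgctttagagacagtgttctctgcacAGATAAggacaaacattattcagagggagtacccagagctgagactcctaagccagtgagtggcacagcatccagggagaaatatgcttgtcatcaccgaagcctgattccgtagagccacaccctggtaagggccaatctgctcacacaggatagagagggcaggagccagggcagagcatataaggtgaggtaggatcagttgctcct
The letters start 86 bases before the gene in Alas2 and 210 in Hbb-bs. They stand in 9.99% of all RefSeq promoters of this length, in 5.52% of those of genes higher in LiTra, 7.23% of those of genes lower in LiTra and 6.71% of those of genes tested.

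**Figure D4:**
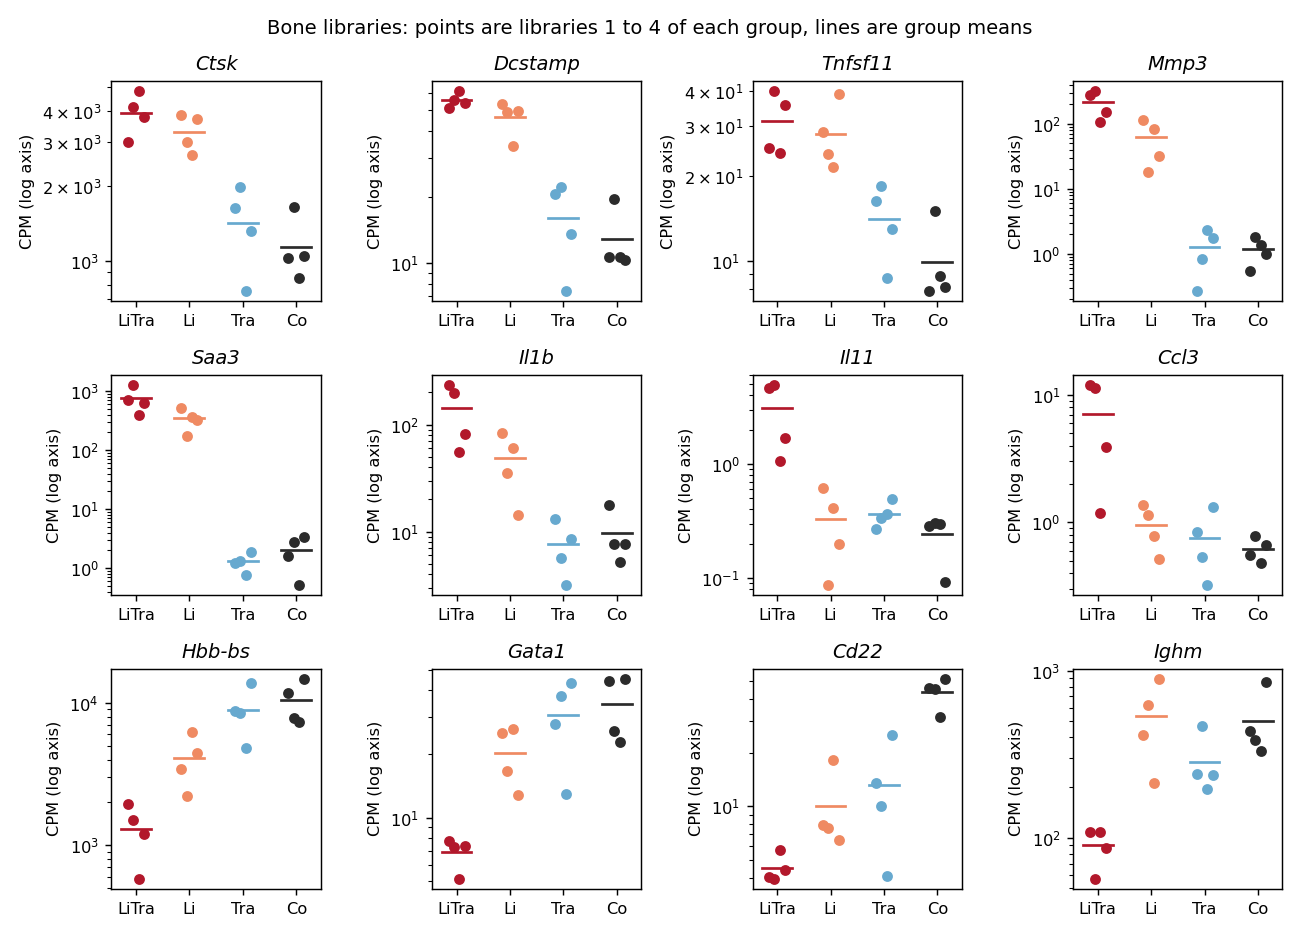
CPM on a log axis for 12 genes in each bone library, with groups in the order LiTra, Li, Tra and Co, points for libraries and lines for group means. In Ctsk, Dcstamp, Tnfsf11, Mmp3, Saa3, Il1b, Il11 and Ccl3 all LiTra points lie above all Co points, and in Hbb-bs, Gata1, Cd22 and Ighm all lie below.

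B cell genes fell. Of 16 B cell markers, 0 rose and 14 fell, while 2 missed the threshold (median -3.04), and in all 16 the LiTra libraries lay below the Co libraries, as they did in 13.9% of all genes tested. Cd22 (ENSMUSG00000030577.15), an inhibitory receptor, was at 4.02, 3.93, 5.72 and 4.44 CPM in LiTra, against 45.8, 45.3, 31.7 and 51.8 CPM in Co (-3.27 ± 0.47, adjusted p = 0.00058). Pax5, the factor that fixes B cell identity, was at 3.95, 4.57, 8.03 and 5.69 CPM in LiTra, against 61.4, 59.8, 35.8 and 54.02 CPM in Co (-3.24 ± 0.53, adjusted p = 0.0012). Fcer2a, the low-affinity IgE receptor of mature B cells, was at 0.878, 0.994, 1.25 and 0.495 CPM in LiTra, against 16.8, 14.1, 9.55 and 18.98 CPM in Co (-4.04 ± 0.69, adjusted p = 0.0015). Fcmr, an IgM receptor, fell by 3.76 and Ighd, the IgD heavy chain, by 3.70 on the log2 scale. Cd79a (-3.01 ± 0.50) and Ms4a1 (-3.25 ± 0.59) fell as well. Ebf1, which marrow stroma and fat precursors also express, did not pass (-0.74 ± 0.27, adjusted p = 0.075). Of 11 pre-B cell and recombination genes, 0 rose and 4 fell, while 7 missed the threshold. Rag1 did not pass (-1.89 ± 0.69, adjusted p = 0.077). Without the 3 nasal-rich libraries Ebf1 and Rag1 passed (adjusted p = 0.0048 and 0.01). Among the pre-B cell and recombination genes, the number that fell was 7 without Tra 3.

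Plasma cell markers did not move as 1 group. Of 9 markers, 2 rose and 4 fell, while 3 missed the threshold. Ighm, the IgM heavy chain, was at 108, 56.6, 108 and 87.1 CPM in LiTra, against 432, 382, 331 and 860.3 CPM in Co (-2.48 ± 0.44, adjusted p = 0.0018). Mzb1, which helps antibody assembly, was at 1.15, 1.53, 0.656 and 1.57 CPM in LiTra, against 8.06, 5.82, 2.96 and 7.47 CPM in Co (-2.31 ± 0.35, adjusted p = 0.00079). Neither overlapped. Jchain, the joining chain of IgM and IgA, fell (-1.57 ± 0.49, adjusted p = 0.04), a call lost for Jchain without any 1 of LiTra 1, LiTra 2, LiTra 3, Tra 2, Co 1 or Co 4 (adjusted p up to 0.147) and without the 3 nasal-rich libraries (adjusted p = 0.0909). Sdc1 and Prdm1 rose, by 1.81 ± 0.20 and 1.54 ± 0.27. Both are also expressed outside the plasma cell, Sdc1 in epithelium and stroma and Prdm1 in osteoclasts and other myeloid cells. The part of B cell RNA in the Ighm and Mzb1 values was not tested.

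T and NK cell genes fell too. Of 22 markers, 0 rose and 14 fell, while 8 missed the threshold (median -1.85). The number that fell was 10 to 16 with 1 library left out. Lck, the kinase of the T cell receptor, was at 2.16, 1.41, 1.72 and 1.34 CPM in LiTra, against 8.98, 6.50, 4.92 and 9.48 CPM in Co (-2.17 ± 0.37, adjusted p = 0.0014). Cd8a (-2.74 ± 0.67, adjusted p = 0.012), and the cytotoxic genes Gzma (-2.67 ± 0.64, adjusted p = 0.012) and Prf1 (-2.94 ± 0.58, adjusted p = 0.0035), were at 0.143 to 0.844 CPM in LiTra bone and 1.59 to 4.21 CPM in Co bone. Cd3e, at 0.642, 0.326, 0.963 and 0.813 CPM in LiTra, against 2.27, 1.42, 2.07 and 4.02 CPM in Co, fell (-1.83 ± 0.50, adjusted p = 0.023), a call lost for Cd3e without any 1 of LiTra 1, LiTra 2 or Co 4 (adjusted p up to 0.0857). Cd4 did not pass (-0.26 ± 0.23, adjusted p = 0.52). In the same libraries Il17a, Il17f and Il23r, genes of a small subset of T cells, were higher.

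Some neutrophil genes fell. Of 13 neutrophil precursor markers, 0 rose and 6 fell, while 7 missed the threshold (median -1.65). Chil3, made by late precursors, was at 161, 248, 464 and 408 CPM in LiTra, against 990.2, 1324, 1033 and 1050.3 CPM in Co (-1.78 ± 0.44, adjusted p = 0.013). The granule enzymes Mpo (-1.67 ± 0.66, adjusted p = 0.1) and Elane (-1.71 ± 0.63, adjusted p = 0.077) did not pass. Of 15 mature neutrophil markers, 1 rose (6.67%) and 3 fell (20%), while 11 missed the threshold. Of all genes tested 8.29% were higher and 8.64% lower. Ly6g, the surface marker, was at 3.95, 6.75, 18.7 and 11.98 CPM in LiTra, against 51.5, 52.7, 50.4 and 45.2 CPM in Co (-2.27 ± 0.55, adjusted p = 0.011). S100a8 was at 412, 916, 1554 and 1259 CPM in LiTra, against 2607, 2938, 2244 and 2150.0 CPM in Co, below the Co range in every LiTra library without passing (-1.26 ± 0.52, adjusted p = 0.11). The same held for S100a9, its partner (-1.25 ± 0.52, adjusted p = 0.12). Mcpt8, a basophil protease, fell (-1.98 ± 0.51, adjusted p = 0.017). Of 13 mast cell, basophil and eosinophil markers, 0 rose and 5 fell, while 8 missed the threshold. Among the neutrophil precursor markers, the number that fell was 2 without LiTra 1, LiTra 2, Co 2 or Co 4 and 10 without Tra 3. Among the mature neutrophil markers, the number that rose was 0 without LiTra 1, LiTra 2, LiTra 4, Co 1, Co 2, Co 3 or Co 4; the number that fell was 1 without LiTra 1, LiTra 2, Co 1, Co 2 or Co 4 and 7 without Tra 3. Among the mast cell, basophil and eosinophil markers, the number that rose was 1 without Co 3; the number that fell was 3 without LiTra 1, LiTra 2, LiTra 4, Co 1 or Co 4.

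Beside 8.29% higher and 8.64% lower of all genes tested, 4 of 23 monocyte and macrophage markers rose (17.4%) and 5 fell (21.7%). The other 14 missed the threshold. Those that rose were Cd68, a lysosomal protein that osteoclasts share, at 136, 206, 218 and 194 CPM in LiTra, against 63.5, 91.7, 43.5 and 66.03 CPM in Co (1.51 ± 0.28, adjusted p = 0.0022), with Csf1r (0.88 ± 0.23, adjusted p = 0.018), Gpnmb (1.31 ± 0.32, adjusted p = 0.013) and Nos2, the inducible nitric oxide synthase (3.84 ± 0.81, adjusted p = 0.0053). Among the 5 that fell, Slc40a1, the iron exporter ferroportin, was at 26.95, 36.97, 44.1 and 37.4 CPM in LiTra, against 98.9, 87.7, 73.2 and 112 CPM in Co (-1.35 ± 0.33, adjusted p = 0.012). Siglec1, a sialic acid receptor, was at 3.55, 2.40, 6.25 and 5.62 CPM in LiTra, against 10.2, 9.60, 10.4 and 18.6 CPM in Co (-1.45 ± 0.38, adjusted p = 0.017). Cd5l (-2.13 ± 0.56, adjusted p = 0.018) and Cd163, the haemoglobin scavenger receptor (-0.92 ± 0.24, adjusted p = 0.02), fell too. Adgre1, which encodes the general macrophage antigen F4/80 (-0.16 ± 0.21, adjusted p = 0.67), and C1qa (-0.08 ± 0.15, adjusted p = 0.81) did not pass, and the sign for C1qa turned without Co 4. Calls were lost for Cd163 without any 1 of LiTra 1, LiTra 2 or Co 4 (adjusted p up to 0.0687), Siglec1 without any 1 of LiTra 2 or Co 4 (adjusted p up to 0.0649), Cd5l without any 1 of LiTra 2 or Co 4 (adjusted p up to 0.0695) and Csf1r without any 1 of LiTra 3 or Co 1 (adjusted p up to 0.0539). Cd163 also lost it without the 3 nasal-rich libraries (adjusted p = 0.0646). Among the monocyte and macrophage markers, the number that fell was 1 without LiTra 2 or Co 4 and 3 without LiTra 1.

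Most vessel genes did not pass. Of 21 endothelial markers, 5 rose and 3 fell, while 13 missed the threshold, shares of 23.8% higher and 14.3% lower beside 8.29% and 8.64% of all genes tested; without LiTra 1, Co 3 and Tra 3, 8 rose and 3 fell. Selp and Sele, the adhesion molecules that let leukocytes leave the blood, rose by 2.24 ± 0.32 and 1.74 ± 0.27. Apln, the apelin gene of sprouting vessels, was at 10.1, 17.9, 7.38 and 14.2 CPM in LiTra, against 1.19, 2.06, 1.37 and 2.56 CPM in Co (2.78 ± 0.40, adjusted p = 0.00062). Stab2, a scavenger receptor of marrow sinusoids, fell, at 5.64, 4.69, 10.7 and 5.28 CPM in LiTra, against 29.4, 32.9, 23.4 and 42.4 CPM in Co, with no overlap (-2.28 ± 0.32, adjusted p = 0.0005). Vwf fell (-1.21 ± 0.32, adjusted p = 0.019) and Pecam1 rose (0.70 ± 0.18, adjusted p = 0.015), calls lost for Vwf without any 1 of LiTra 1, LiTra 2 or Co 4 (adjusted p up to 0.064) and Pecam1 without LiTra 2 (adjusted p up to 0.0547). Adipoq, the adiponectin gene of fat cells, fell (-2.17 ± 0.53, adjusted p = 0.013). Of 14 adipocyte markers, 0 rose and 2 fell (14.3%), while 12 missed the threshold, beside 8.64% lower of all genes tested. Fgf7, a stromal growth factor, chosen after its value was seen, was at 48.6, 95.6, 52.3 and 60.5 CPM in LiTra, against 16.3, 14.9, 16.1 and 14.02 CPM in Co (2.07 ± 0.21, adjusted p = 0.00011). Among the endothelial markers, the number that fell was 1 without LiTra 1 or Co 4. Among the adipocyte markers, the number that fell was 1 without LiTra 2, LiTra 3, Co 1 or Co 4.

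Of 19 interferon response genes, 0 rose and 3 fell (15.8%), while 16 missed the threshold. Of all genes tested 8.64% were lower. Rsad2, an antiviral enzyme, was at 26.5, 15.3, 8.95 and 11.2 CPM in LiTra, against 70.3, 54.2, 52.4 and 90.9 CPM in Co, lower in every LiTra library (-2.11 ± 0.36, adjusted p = 0.0015). Isg15 fell (-1.21 ± 0.33, adjusted p = 0.022), a call lost for Isg15 without any 1 of LiTra 3, LiTra 4 or Co 4 (adjusted p up to 0.0951). Of 22 cell cycle genes, 0 rose and 5 fell (22.7%), while 17 missed the threshold, and 16 fell without the 3 nasal-rich libraries. Mki67, the proliferation antigen, was at 199.9, 274, 220.5 and 259 CPM in LiTra, against 675, 587, 483 and 628 CPM in Co (-1.32 ± 0.29, adjusted p = 0.0077). Rrm2, needed for DNA synthesis, fell by 1.35 on the log2 scale. Of 16 clock genes, 2 rose and 2 fell (12.5% each), while 12 missed the threshold. The shares of all genes tested were 8.29% higher and 8.64% lower. Clock was at 0.84 ± 0.19 and Nr1d1, its repressor arm, at -1.33 ± 0.32. The labels gave no hour of sampling. Among the interferon response genes, the number that fell was 1 without LiTra 3, LiTra 4 or Co 4. Among the cell cycle genes, the number that fell was 2 without LiTra 2 and 3 without Co 4 and 8 without Co 3 and 15 without Tra 3. Among the circadian clock genes, the number that fell was 1 without LiTra 1, LiTra 2, LiTra 3, LiTra 4, Co 1 or Co 4 and 5 without Tra 4.

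The listed markers of tissue next to the bone were not called with all libraries in the fit. Of 20 stratified epithelium markers, 0 rose and 0 fell, while 20 missed the threshold. Their summed share was 0.103, 0.269, 0.122 and 0.164% of the counts in LiTra, against 1.29, 0.00618, 0.0388 and 0.0168% in Co. Every LiTra library lay above Co 2, Co 3 and Co 4 and below Co 1. Of 18 skeletal muscle markers, 0 rose and 0 fell, while 18 missed the threshold. Their share was 0.00213 to 0.0262% in LiTra and 0.00181 to 0.0528% in Co libraries. With shares so far apart within a group the test could hardly call either list. It does not show that the groups held like amounts of these tissues. Sprr2a1, Sprr2a2 and Sprr2a3, near-identical envelope genes of stressed epithelium that can share reads, were called higher. Sprr2a1 was at 4.83, 146, 18.03 and 24.99 CPM in LiTra, against 1.94, 0.0463, 0.0741 and 0 CPM in Co, with LiTra 2 far above the rest (6.49 ± 2.07, adjusted p = 0.045). Their calls were lost without LiTra 2 among other libraries (adjusted p up to 0.133). Sprr2a1 and Sprr2a2 also lost theirs without the 3 nasal-rich libraries (adjusted p = 0.0653 and 0.0644). The part of gum tissue in these values was not tested. Among the stratified epithelium markers, the number that rose was 7 without Co 1; the number that fell was 1 without Co 3.

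Values under each single treatment stood beside these as follows. The comparisons of LiTra, Li and Tra with Co share the same 4 Co libraries. Against Co, 745 genes (3.51%) were called in Li bone, 565 higher (2.66%) and 180 lower (0.849%), and 0 in Tra bone by edgeR (2023 at an unadjusted p under 0.05). The median log2 difference of osteoclast markers was 1.13 in LiTra, 0.99 in Li and 0.04 in Tra bone; for erythroid markers these were -2.99, -1.18 and -0.15, and for B cell markers -3.04, -1.93 and -1.35. Many calls were shared with the ligature alone. Of the 20 osteoclast markers 16 were called higher in LiTra, 13 in Li and 0 in Tra bone. For the 30 matrix assembly genes these counts were 21, 10 and 0. Of the 16 B cell markers 14 were called lower in LiTra, 9 in Li and 0 in Tra bone. Of the 22 erythroid markers 21 were called lower in LiTra, 0 in Li and 0 in Tra bone. Between LiTra and Li bone directly, edgeR called 0 of these 22 markers (median log2 difference -1.70). Mmp3 was at 7.50 ± 0.80 in LiTra, 5.71 ± 0.74 in Li and 0.08 ± 0.67 in Tra bone. Neither edgeR nor DESeq2 called its difference between LiTra and Li bone.

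**Figure D5:**
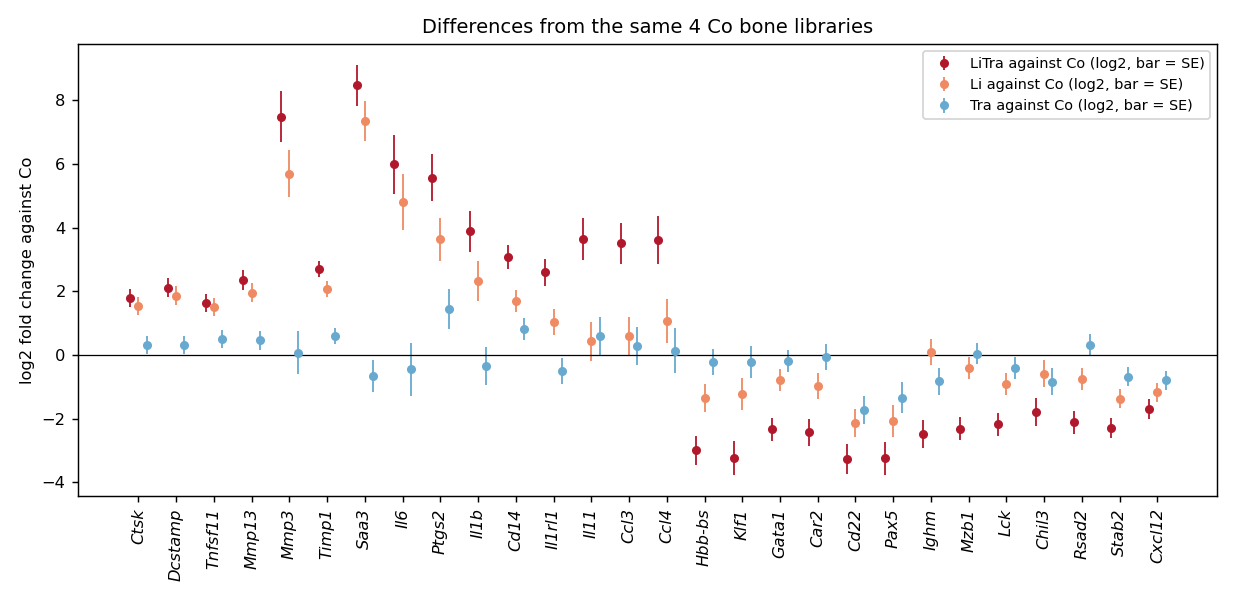
Log2 fold change against the same 4 Co bone libraries for 28 genes in LiTra (dark red), Li (orange) and Tra (blue) bone, with bars for the SE. Points for Ctsk, Dcstamp and Tnfsf11 in LiTra and Li lie within about 1 SE of each other, and those for Il11, Ccl3, Ighm and Mzb1 in LiTra lie farther from zero than in Li or Tra bone.

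The test of what the overload added to the ligature was LiTra against Li, in which edgeR called 0 of 21205 genes (1352 at an unadjusted p under 0.05, lowest adjusted p = 0.358), limma-voom 0 and DESeq2 106. Without Tra 3 edgeR called 2. The log2 difference of Ctsk was 0.26 ± 0.29, adjusted p = 0.95, and the median of the 20 osteoclast markers was 0.08. The gaps were wider in other genes. Ighm was at 108, 56.6, 108 and 87.1 CPM in the LiTra libraries, against 410.0, 621, 214 and 895 CPM in the Li libraries, with no overlap (log2 difference -2.57 ± 0.44, adjusted p = 0.36 by edgeR and 2.4e-06 by DESeq2). Mzb1 (-1.90 ± 0.34, adjusted p = 0.36) and Gata1 (-1.55 ± 0.35, adjusted p = 0.56) were also lower in LiTra than in Li bone without passing by edgeR, with adjusted p of 9.1e-05 and 0.0076 by DESeq2. Il11 was at 4.63, 4.96, 1.07 and 1.68 CPM in the LiTra libraries, against 0.61, 0.0865, 0.415 and 0.198 CPM in the Li libraries (3.22 ± 0.64, adjusted p = 0.55 by edgeR and 0.00034 by DESeq2). Ccl3 was at 11.99, 11.3, 1.19 and 3.87 CPM in the LiTra libraries, against 1.36, 1.15, 0.774 and 0.514 CPM in the Li libraries (2.90 ± 0.63, adjusted p = 0.56 by edgeR and 0.0017 by DESeq2), and LiTra 3 lay inside the Li range. Further differences that DESeq2 called and edgeR did not (adjusted p = 0.56 each by edgeR) were -1.64 ± 0.43 for Hbb-bs, -2.01 ± 0.52 for Klf1 and -1.37 ± 0.36 for Rsad2. Among the increases these were 2.55 ± 0.72 for Ccl4, 1.56 ± 0.41 for Il1rl1 and 1.39 ± 0.34 for Cd14. Neither DESeq2 nor edgeR called Il1b, Mmp3 or Saa3. Their log2 differences by DESeq2 were 1.58, 1.81 and 1.14 (adjusted p = 0.242, 0.178 and 0.376 by DESeq2).

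LiTra against Tra, which tests the ligature on top of the overload, gave 1179 genes (5.56%), 652 higher (3.07%) and 527 lower (2.49%). With 1 library left out, that count was 536 without LiTra 2, 708 without LiTra 3, 617 without LiTra 4, 697 without Tra 2, 617 without Tra 4 and 1956 without Tra 3. Of 22 erythroid markers 21 were called lower there (median -2.85), of 16 B cell markers 2, and of 20 osteoclast markers 15 were called higher (median 1.16). The interaction, which tests whether the combined change differs from the sum of both single changes on the log2 scale, gave 0 genes by edgeR (644 at an unadjusted p under 0.05, lowest adjusted p = 1), 0 by limma-voom and 8 by DESeq2. A p that misses the threshold does not show that the treatments act alike or add up.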

How the data were processed

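Poly(A) RNA of bone was sequenced in 4 groups of 4 libraries. The values are estimated counts per gene, whole numbers as deposited, and per the submitters' processing notes HISAT2 2.2.1 (on GRCm39), StringTie 2.1.7, DESeq2 1.32.0, FastQC 0.11.9 and Trimmomatic 0.39 were used. How reads were assigned to strands is not stated in these sources. CR in the column names was read as composite resin. Of 55359 gene IDs, 52083 matched a symbol in GENCODE M21. Genes passing edgeR's filterByExpr (minimum count 10, total 15) were tested in R 4.3.3 with edgeR 4.0.16: TMM scaling, quasi-likelihood test, all 16 bone libraries in 1 fit with no block, Benjamini-Hochberg adjustment over 21205 genes, calls at an adjusted p under 0.05. SE is the absolute log2 change divided by the square root of F. The scripts were tested on simulated data. DESeq2 1.42.0, limma 3.58.1 and other scalings, filters and libraries left out served as alternatives. The members and the 60 gene lists were chosen with earlier results of these data known. Genes named are the 15 largest increases and 15 largest decreases among called genes whose groups did not overlap with a mean log2 CPM of 1 or more, list members of smallest p or defining role, and 13 genes chosen by name. Totals of 38163979 to 70793037 counts per library set the precision, and bounds cover counting error only.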

Additional observations from a re-analysis of the deposited data

Results flagged for a closer look

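Single libraries that stood far from the other 3 of their group were marked where the gap to the nearest took a larger part of the group's range than Dixon's 95% value for 4 allows. Chance marks about 1 in 20 groups, and 34 of 340 groups tested (10%) were marked. LiTra 1 stood below the other libraries of its group in Col1a2 (9734 CPM), Mcpt8 (1.62 CPM) and Oscar (31.2 CPM). LiTra 2 stood above the other libraries of its group in Il1rl1 (247 CPM), Sprr2a1 (146 CPM), Sprr2a2 (147 CPM) and Sprr2a3 (27.2 CPM). LiTra 3 stood above the other libraries of its group in Stab2 (10.7 CPM). LiTra 4 stood above the other libraries of its group in Adipoq (10.7 CPM). Co 1 stood above the other libraries of its group in Cxcl1 (10.5 CPM), Cxcl2 (2.82 CPM), Cxcl5 (36.04 CPM), Has2 (4.35 CPM), Sprr2a1 (1.94 CPM), Sprr2a2 (1.92 CPM) and Sprr2a3 (0.071 CPM). Co 2 stood above the other libraries of its group in Acp5 (1446 CPM), Atp6v0d2 (115 CPM), Dcstamp (19.6 CPM), Fos (21.2 CPM), Oscar (21.98 CPM), Osmr (27.01 CPM), Saa1 (0.116 CPM), Sfrp4 (119 CPM), Slc9b2 (73.8 CPM), Src (48.99 CPM) and Tnfsf11 (15.1 CPM). Co 3 stood above the other libraries of its group in Il6 (0.666 CPM). Co 3 stood below the other libraries of its group in Bmp6 (13.9 CPM) and Col3a1 (2791 CPM). Co 4 stood above the other libraries of its group in Jchain (59.5 CPM) and Siglec1 (18.6 CPM). Co 4 stood below the other libraries of its group in Il11 (0.0914 CPM). The nasal gland share was 52.9% in LiTra 1, against 0.00548 to 0.639% in the other libraries of its group.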

How the results depend on the processing

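The count of genes called between LiTra and Co bone, 3589 as reported, was 12 (12 higher, 0 lower) with library totals as the only scaling and 1953 (977 higher, 976 lower) with the nasal gland genes left out as well; it was 6758 (3383 higher, 3375 lower) with limma-voom and quality weights, 103 (40 higher, 63 lower) when a change of at least 2-fold was tested, and 1614 (832 higher, 782 lower) at an adjusted p under 0.01. Leaving out 1 library gave 2169 to 4828 genes, 1114 to 2385 higher and 1055 to 2443 lower. For LiTra against Tra, 1179 as reported, these settings gave 5, 718, 3299, 7 and 390, no filter on low counts gave 729, DESeq2 2397, the fit without LiTra 1, Co 3 and Tra 3 gave 2250, and leaving out 1 library 536 to 1956. For LiTra against Li, 0 as reported, DESeq2 gave 106 and leaving out 1 library 0 to 2; for the interaction, 0 as reported, DESeq2 gave 8. The haemoglobin difference was -3.47 to -2.45 percentage points with 1 library left out (exact permutation p = 0.0571, the smallest that 3 against 4 can give). Signs turned for 4 genes that were not called. With 1 library left out, the log2 change of Col1a1 ran from -0.301 to 0.348 (above 0 without LiTra 1, Co 2 or Co 4), that of Tfrc from -0.143 to 0.00063 (above 0 without LiTra 4), that of Alpl from -0.0552 to 0.315 (below 0 without Co 3) and that of C1qa from -0.21 to 0.0454 (above 0 without Co 4); with limma-voom Col1a1 was at 0.027. The cause was not tested. Of 168 genes named or held for naming, 145 were called, and 124 of these kept the call in all 16 fits that left out 1 library. With a replicate block 3185 genes were called between LiTra and Co and 936 between LiTra and Tra, and Col1a1 was at 0.073. The calls of Cxcl5, Jchain, Mmp25, Mmp8, Sprr2a1, Sprr2a2 and Tnfrsf11b were lost. Same-numbered LiTra and Co libraries deviated with correlations of -0.21, 0.155, -0.33 and 0.0566, and no LiTra library correlated best with the Co library of its number. The highest correlation was 0.5, between LiTra 1 and Co 3, both rich in nasal gland counts. The part of those counts in the correlations was not tested, so they cannot show whether the numbers pair libraries. The main fit took no pairing. At these totals depth limits mainly genes at or near 0 counts, such as Il17a in Co bone.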
